A study of Mus musculus with 21 samples.

Results

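Histone chaperones that carry H3 and H4 to and from chromatin were followed at the RNA level through mouse spermatogenesis. The set holds 10 genes, *Hira*, *Ubn1*, *Ubn2*, *Cabin1*, *Asf1a*, *Asf1b*, *Daxx*, *Atrx*, *Nasp* and *Dnajc9*, chosen by name for the HIRA complex, the ASF1 pair, the DAXX-ATRX pair and 2 further H3-H4 carriers. All 10 were found among the 24456 genes listed in every count file, and all 10 passed the filter on low counts in each comparison. RNA came from fractionated testis cells of H2al2 WT and H2al2 KO mice, in 3 libraries per genotype for the pachytene, round spermatid and condensing spermatid fractions, and from spermatozoa in 2 WT libraries and 1 KO library. H2al2 encodes H2A.L.2, a histone H2A variant of late spermatids. The construction of the KO allele, the strain and the ages of the animals are not given in the sources used here, and the labels do not say which libraries share an animal, so the p-values below measure only the spread between these libraries.

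H3 is deposited into nucleosomes along separate routes. The HIRA complex, built of HIRA, an ubinuclein (UBN1 or UBN2) and CABIN1, loads the replacement variant H3.3 at active genes and in regions that lose nucleosomes, without DNA replication. ASF1A and ASF1B bind H3-H4 dimers and hand them on, ASF1A mostly to HIRA and ASF1B mostly in dividing cells. DAXX with the ATPase ATRX places H3.3 in heterochromatin and at telomeres, NASP keeps a soluble pool of H3-H4, and DNAJC9 is a histone chaperone that recruits HSP70-type chaperones. In the male germ line, H3.3 is known to enter the silenced sex chromosomes during meiosis, and nucleosomes are later replaced by transition proteins and protamines, which condense the sperm genome.

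Values are given as TMM-normalised CPM, the read count of a gene scaled to a fixed library total after a correction for library composition. Such levels are comparable between libraries for a gene, but between genes only after division by transcript length. Changes are log2 fold changes from edgeR's quasi-likelihood test with a 95% interval and a Benjamini-Hochberg adjusted p over all genes tested, called at 0.05. In bulk RNA, fewer cells of a type and less RNA per cell cannot be told apart.

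Counts on genes per library ran from 5799060 to 8201682 in the 3 cell fractions and from 2772995 to 3450580 in spermatozoa, and the members had between 11 counts (*Asf1b* in spermatozoa) and 11841 counts (*Nasp* in round spermatids). The row *H2afb1* was taken as the targeted gene. RefSeq gives this symbol as an older name both of the H2A.L.2 gene and of *H2ab1*, and *H2ab1* has a row of its own under another older name, *Gm14920*, so that the match rests on synonyms. Its level was 201 to 212 CPM in WT and 20.7 to 25.4 CPM in KO round spermatids, a log2 change of -3.10 (adjusted p = 3.40e-08), and in condensing spermatids the log2 change was -2.71 (adjusted p = 9.54e-07). In pachytene spermatocytes, where WT libraries had 14.5 to 40.5 CPM and KO libraries 3.14 to 4.91 CPM, the change of -2.75 did not pass the test (adjusted p = 0.484). Stage markers set the pachytene fraction apart, and separated round from condensing spermatids only in part. The summed level of 10 spermatocyte markers was 1830 to 3054 CPM in pachytene libraries against 542 to 739 CPM in round and 940 to 1146 CPM in condensing spermatids. That of 9 round spermatid markers was 2281 to 2487 CPM in round spermatids against 1552 to 1838 CPM in condensing spermatids. That of 9 elongating spermatid markers was 28930 to 43764 CPM in condensing spermatids, which overlapped the 25517 to 32976 CPM in round spermatids. The third WT pachytene library had the lowest elongating spermatid sum of its group, 2449 CPM against up to 5966 CPM. Marker sums of other cell types differed between fractions. Sertoli markers stood at 320 to 503 CPM in condensing spermatids against 24.8 to 51.8 CPM in round spermatids, and macrophage markers at 708 and 753 CPM in WT spermatozoa and 3500.4 CPM in KO spermatozoa against at most 33.8 CPM in every other library. These values are repeated beside the results that they move with.

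*Ubn1* and *Ubn2*, the pair of ubinuclein genes, changed in opposite directions after meiosis, and the bases upstream of both starts are shown because they are the only members that hold a full cAMP response element (CRE, TGACGTCA), the binding motif of the CREB and CREM factors of which CREM is known for driving round spermatid genes. The sequences are from RefSeq on GRCm38.p6 and are written 5′ to 3′ on the gene's strand up to the base before the RefSeq start. Capitals mark the CRE and CCAAT boxes, the latter also as ATTGG on the other strand.
*Ubn1*, chr16:5049864-5050056, plus strand: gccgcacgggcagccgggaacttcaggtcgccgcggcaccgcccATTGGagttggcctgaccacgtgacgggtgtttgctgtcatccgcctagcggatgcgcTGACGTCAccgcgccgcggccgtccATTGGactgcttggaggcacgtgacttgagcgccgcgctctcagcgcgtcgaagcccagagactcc
*Ubn2*, chr6:38433675-38433924, plus strand: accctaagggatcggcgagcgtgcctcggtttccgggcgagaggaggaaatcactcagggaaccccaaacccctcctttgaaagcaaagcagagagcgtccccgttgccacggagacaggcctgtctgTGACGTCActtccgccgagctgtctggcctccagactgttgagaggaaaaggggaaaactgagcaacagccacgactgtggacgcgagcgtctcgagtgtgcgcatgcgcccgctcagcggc

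The CRE began 91 bases before the RefSeq start of *Ubn1* and 122 bases before that of *Ubn2*. The gene coordinates given below are from GENCODE, which places the *Ubn2* start further downstream, at 38433950. Both stretches lie outside annotated exons, and the *Ubn1* stretch is the gap between *Ubn1* and the divergent gene *Glyr1*. Of 32851 RefSeq starts, 1.55% had this motif within 250 bases upstream. The other motifs searched on both strands were the CCAAT box (CCAAT, 7 of 10 members against 33.8% of starts), the GC box (GGGCGG, 7 of 10 against 32.7%), an E2F motif (TTTCCCGC or TTTGGCGC, 0 of 10 against 1.3%) and TATAAA (0 of 10 against 12.4%). A member was counted if any of its RefSeq starts had the motif, whereas the percentages are over single starts. *Daxx* had 3 starts, and only the first of them had a CCAAT box. *Asf1b* had 4 CCAAT boxes and its paralogue *Asf1a* had 1, and 0.84% of all starts had at least 4. The upstream CpG ratio, observed over expected, was 0.42 for the X-linked *Atrx* and 0.75 to 1.10 for the others, against a median of 0.37 over all starts. These matches describe the letters in the windows and nothing of which factors bind there.

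From pachytene spermatocytes to round spermatids, across the meiotic divisions, WT libraries lost about 3-fold in *Hira* and *Asf1b* RNA and about 2-fold in *Ubn1* RNA, while *Dnajc9* RNA rose about 3-fold and *Ubn2* RNA rose less. The other 5 members did not pass the test. The 5 of 10 members called compare with 70.3% of all 14011 genes tested in this comparison, a larger share than that of the members, whose median log2 change was -0.15, against -0.02 over all genes. In the KO libraries, which are separate samples, the same contrast called 6 of 10 members, against 74.9% of 13877 genes.

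*Hira* encodes the scaffold subunit of the HIRA complex (chr16:18877037-18970309, plus strand). Its level was 18.1, 17.2 and 16.4 CPM in WT pachytene spermatocytes and 19.6, 16.5 and 17.0 CPM in KO. It was 8.99, 4.74 and 4.21 CPM in WT round spermatids and 6.42, 5.73 and 6.33 CPM in KO, below every pachytene library. The fall was -1.49 (95% interval -2.0 to -0.99, adjusted p = 7.66e-05) in WT, 2.81-fold, and -1.54 (-1.91 to -1.16, adjusted p = 2.16e-07) in KO. Condensing spermatids had 8.15, 9.87 and 8.08 CPM in WT and 8.77, 10.4 and 6.90 CPM in KO. Against round spermatids the change was 0.56 in WT (0.02 to 1.10, adjusted p = 0.0794), where the groups overlapped, and 0.52 in KO (0.11 to 0.92, adjusted p = 0.0311), where they did not. Without the first WT round spermatid library, which was about 2-fold above its replicates, the WT change was 0.98 (adjusted p = 0.00216). The 2 WT round libraries then left differed by little more than sampling noise for genes with 100 to 1000 counts (mean chi-square 1.06, where 1 is sampling noise). Whether they are independent is not stated, and this p takes them as independent. The WT change was also called in the edgeR fit of all 18 libraries (0.56, adjusted p = 0.0400). The KO call was lost with 5 of the 6 KO round and condensing libraries left out in turn (adjusted p up to 0.18). It was also lost with every library kept, by the DESeq2 Wald test (adjusted p = 0.100) and in the edgeR fit of all 18 libraries (adjusted p = 0.0656).

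*Ubn1* (chr16:5050057-5086289, plus strand) codes for a subunit that binds H3.3 within the HIRA complex. It had 159, 169.5 and 177 CPM in WT pachytene spermatocytes and 76.2, 70.1 and 72.5 CPM in WT round spermatids. Its KO values were 160.2, 167 and 184 CPM before and 83.3, 65.7 and 79.2 CPM after meiosis. The fall was -1.19 in both genotypes, 2.28-fold in WT (-1.42 to -0.95, adjusted p = 6.56e-07) and 2.27-fold in KO (-1.40 to -0.97, adjusted p = 3.03e-09). It then stayed within 69.6 to 81.3 CPM in condensing spermatids, with changes of 0.03 in WT (-0.21 to 0.26) and 0.07 in KO (-0.15 to 0.29), neither past the test. *Ubn1* also varied least among replicates, with a pooled SD within groups of 0.10 on the log2 scale.

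*Ubn2* (chr6:38433950-38524825, plus strand) is the paralogue of *Ubn1* and can take its place in the complex. It had 116, 97.9 and 160.0 CPM in WT pachytene spermatocytes and 175, 213 and 220.3 CPM in WT round spermatids, a rise of 0.72 (0.34 to 1.11, adjusted p = 0.00264). In KO it had 189, 168 and 136 CPM and then 179, 251 and 229 CPM, so that the KO groups overlapped, and the change was 0.40 (0.11 to 0.68, adjusted p = 0.0124), a call lost with library size only (adjusted p = 0.114) and when either the third KO pachytene or the second KO round library was left out (adjusted p up to 0.0813). Condensing spermatids had 199, 199 and 242 CPM in WT and 223, 269.6 and 239 CPM in KO. The changes there, 0.10 in WT (-0.28 to 0.48) and 0.17 in KO (-0.11 to 0.45), did not pass the test.

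*Cabin1* (chr10:75646112-75764341, minus strand), whose protein completes the HIRA complex, passed no stage test between these fractions. It ran from 46.9 to 57.0 CPM in WT pachytene spermatocytes, 42.5 to 51.8 CPM in WT round spermatids and 33.2 to 47.3 CPM in WT condensing spermatids, and the groups overlapped at each step. In KO the ranges were 43.4 to 60.3, 41.6 to 49.7 and 36.2 to 41.4 CPM. The 4 stage changes lay between -0.22 and -0.13. *Cabin1* was called in WT condensing spermatids without the third of those libraries (-0.40, adjusted p = 0.0416). It was called in KO round against pachytene spermatocytes with library size only (-0.36, adjusted p = 0.0189) and without the third KO pachytene library (-0.32, adjusted p = 0.0205).

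**Figure D1:**
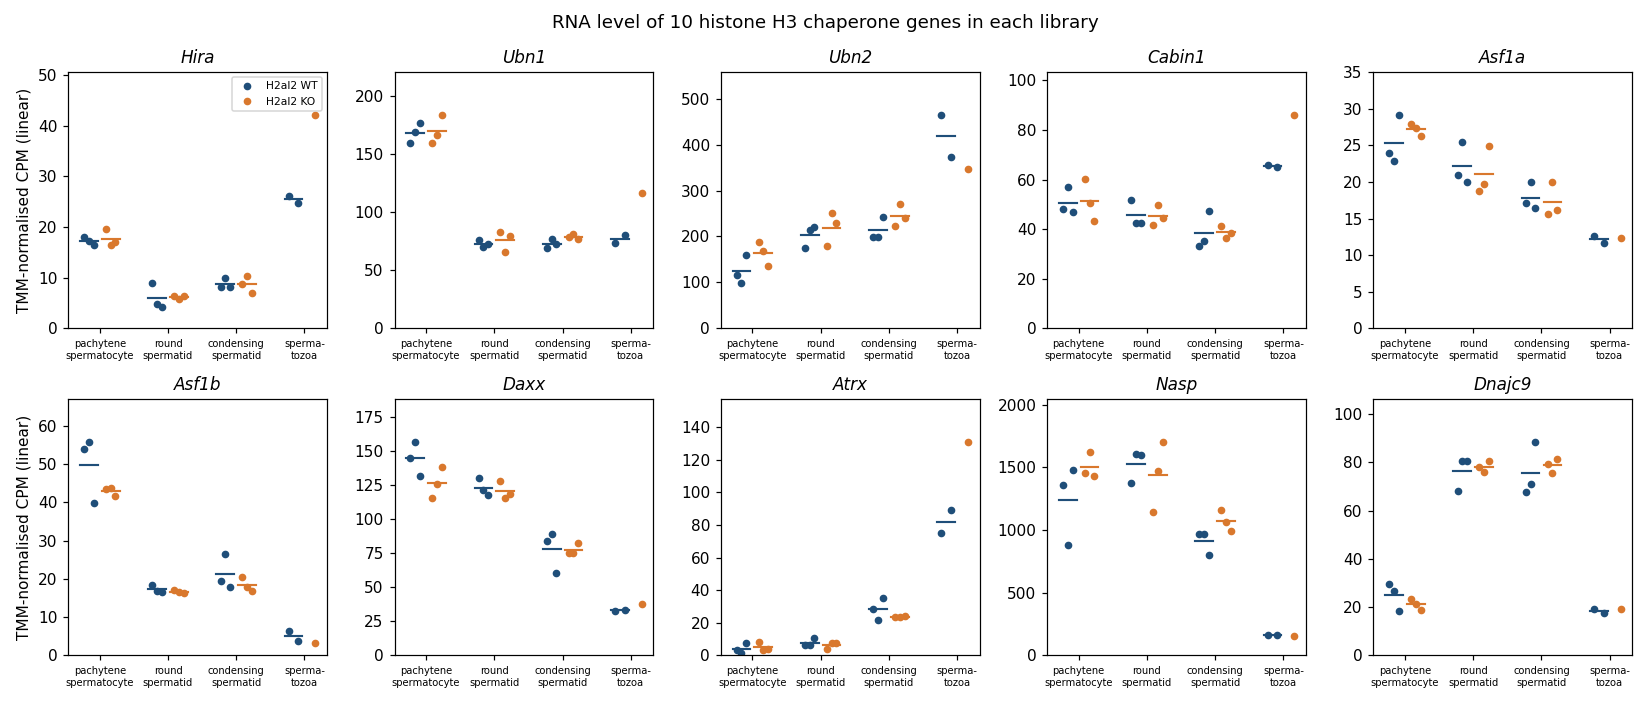
Level of each member in every library on linear axes, in TMM-normalised CPM, by stage, with WT in blue and KO in orange and a bar at the mean of groups with more than 1 library. *Hira*, *Ubn1* and *Asf1b* drop after the pachytene stage, *Dnajc9* and *Ubn2* rise, and *Atrx* climbs from 1.42 to 8.48 CPM in pachytene spermatocytes to 74.8 to 131 CPM in spermatozoa.

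The ASF1 pair diverged. *Asf1b* (chr8:83955507-83970197, plus strand) had 54.1, 55.8 and 39.7 CPM in WT and 43.5, 43.9 and 41.7 CPM in KO pachytene spermatocytes. In round spermatids it had 18.5, 16.9 and 16.7 CPM in WT and 17.2, 16.5 and 16.4 CPM in KO. The fall was -1.50 in WT (-1.87 to -1.13, adjusted p = 3.96e-06) and -1.39 in KO (-1.64 to -1.13, adjusted p = 3.84e-09), and every pachytene library lay above every round spermatid library. It was 17.9 to 26.6 CPM in WT and 16.7 to 20.6 CPM in KO condensing spermatids, with changes of 0.32 (-0.06 to 0.71) and 0.16 (-0.11 to 0.44) that did not pass the test.

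*Asf1a* (chr10:53596757-53609225, plus strand) moved less. It had 23.9, 22.9 and 29.2 CPM in WT pachytene spermatocytes and 20.9, 25.5 and 20.0 CPM in WT round spermatids, overlapping groups with a change of -0.17 (-0.49 to 0.15, adjusted p = 0.327). In KO it went from 26.3 to 27.9 CPM to 18.8 to 24.9 CPM, and the change of -0.38 (-0.68 to -0.09, adjusted p = 0.0194) was called, but not by the DESeq2 Wald test (adjusted p = 0.0618). The call was also lost without the second KO pachytene, the first KO round or the second KO round library (adjusted p up to 0.0947). Condensing spermatids had 16.5 to 20.0 CPM in WT and 15.7 to 20.1 CPM in KO, with changes of -0.28 (-0.61 to 0.05) and -0.27 (-0.58 to 0.03) that did not pass. Exons of *Asf1a* overlap those of *Mcm9* on the other strand, and the reads were counted by strand.

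*Daxx* (chr17:33909414-33915590, plus strand), the H3.3-binding subunit of the DAXX-ATRX pair, was lower as spermatids condensed. It had 146, 157 and 132 CPM in WT pachytene and 131, 121 and 118 CPM in WT round spermatids, groups that did not overlap, with a change of -0.21 (-0.51 to 0.09, adjusted p = 0.199) that did not pass the test. In KO the ranges were 116 to 138 and 116 to 129 CPM (-0.09, -0.29 to 0.11). With library size only, edgeR called *Daxx* lower in round spermatids in WT (-0.39, adjusted p = 0.0312) and in KO (-0.24, adjusted p = 0.0297). Condensing spermatids had 84.2, 89.4 and 61.0 CPM in WT and 75.6, 75.3 and 82.4 CPM in KO, all below every round spermatid library. The fall was -0.63 in WT (-0.94 to -0.32, adjusted p = 0.00282) and -0.62 in KO (-0.83 to -0.42, adjusted p = 3.14e-05).

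*Atrx*, the ATPase partner of DAXX (chrX:105797615-105929403, minus strand), moved the other way. It was the member with the fewest counts in pachytene spermatocytes, at 3.23, 1.42 and 7.89 CPM in WT (27, 12 and 54 counts) and 8.48, 3.17 and 3.85 CPM in KO. Round spermatids had 6.71, 6.14 and 10.5 CPM in WT and 3.77, 7.79 and 7.49 CPM in KO, overlapping the pachytene values. The change was 0.96 in WT (0.01 to 1.90, adjusted p = 0.0656) and 0.28 in KO (-0.37 to 0.92, adjusted p = 0.427). Without the third WT pachytene library the WT value was 1.75 (adjusted p = 0.000475). With that library kept, edgeR also called it with no filter (adjusted p = 0.0357), with all 18 libraries (adjusted p = 0.0442) and with a replicate block (adjusted p = 0.00819). The DESeq2 Wald test, DESeq2 size factors and library size only did not call it. In the same contrast 346 of 492 X-linked genes tested were called higher in WT round spermatids and 1 lower, with a median of 1.57 against -0.02 over all genes, and the X chromosome is known to be silenced in pachytene spermatocytes. In KO 353 of 484 X-linked genes tested were called higher. Over all genes tested, 34.4% were called higher in WT and 36.5% in KO.

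Condensing spermatids had 28.4, 21.8 and 35.0 CPM of *Atrx* in WT and 23.4, 23.7 and 24.1 CPM in KO, all above every round spermatid library. The rise was 1.90 in WT (1.09 to 2.7, adjusted p = 0.00113), 3.72-fold, and 1.92 in KO (1.39 to 2.45, adjusted p = 4.37e-06), 3.78-fold. Median X-linked change in this contrast was 0.18 in WT. Markers of other cells rose in the same libraries. All 7 Sertoli markers tested, all 8 Leydig markers and 3 of 5 peritubular markers were called higher in WT condensing than in round spermatids. So were 4 of 8 spermatogonium markers, 4 of 10 spermatocyte markers, of which 1 other was called lower, and 0 of 5 macrophage markers. Over all genes tested in this contrast 28.3% were called higher and 21.8% lower. The summed Leydig level was 92.0 to 239 CPM in condensing against 6.62 to 15.5 CPM in round spermatids, and 10 of 10 Sertoli and 8 of 8 Leydig markers were above 0 in every group of spermatids. The part of these markers in the *Atrx* and *Hira* values was not tested.

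*Nasp* (chr4:116601052-116627941, minus strand), whose protein protects soluble H3-H4, had the highest level per kilobase of exon of the 10 members in each WT group. It had 1359, 885 and 1484 CPM in WT and 1455, 1625 and 1431 CPM in KO pachytene spermatocytes. Round spermatids had 1378, 1608 and 1599.8 CPM in WT and 1148, 1476 and 1704 CPM in KO. The change was 0.32 in WT (-0.07 to 0.70, adjusted p = 0.125) and -0.08 in KO (-0.35 to 0.19, adjusted p = 0.579), and the WT change passed the test without the third pachytene library (0.47, adjusted p = 0.0196). Condensing spermatids had 967, 966 and 804 CPM in WT, below every WT round library, and 1157, 1062 and 996 CPM in KO, where the groups overlapped. The fall was -0.72 in WT (-1.10 to -0.33, adjusted p = 0.00509) and -0.41 in KO (-0.68 to -0.14, adjusted p = 0.0107), the latter lost without the third KO round library (adjusted p = 0.0598).

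*Dnajc9* (chr14:20384638-20388910, minus strand) rose most after meiosis. It had 29.5, 26.9 and 18.6 CPM in WT and 23.4, 21.2 and 19.0 CPM in KO pachytene spermatocytes. It had 68.0, 80.7 and 80.7 CPM in WT and 78.1, 75.9 and 80.5 CPM in KO round spermatids, above every pachytene library. The rise was 1.63 in WT (1.26 to 2.00, adjusted p = 2.08e-06), 3.10-fold, and 1.86 in KO (1.63 to 2.09, adjusted p = 1.0e-11), 3.63-fold. The level held in condensing spermatids, at 67.8 to 88.5 CPM in WT and 75.5 to 81.3 CPM in KO, with changes of 0.01 (-0.34 to 0.37) and 0.03 (-0.18 to 0.23).

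As spermatids condensed, 3 of 10 members were called in WT, against 50% of 14011 genes, and 4 of 10 in KO, against 54.2% of 13877 genes. Round spermatid libraries enter this comparison and the previous one, so the 2 steps are not independent. *Atrx*, *Daxx* and *Nasp* were called in both genotypes and in the same directions.

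**Figure D2:**
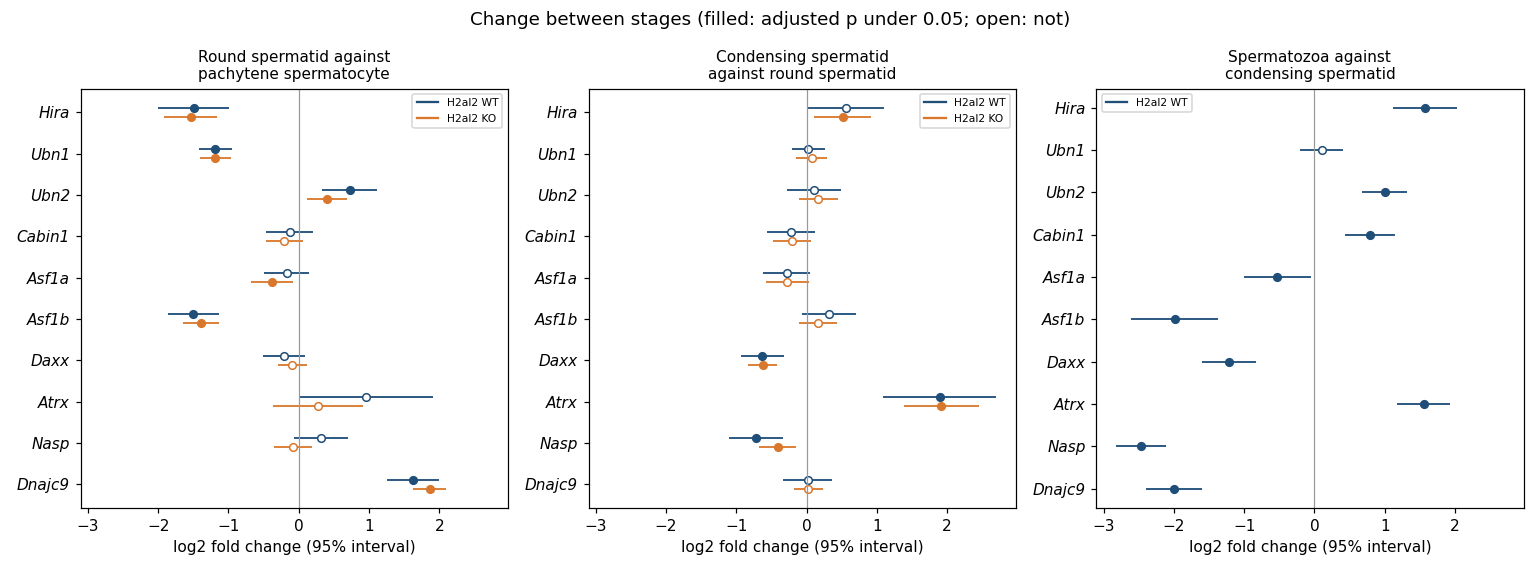
Log2 fold change of each member between successive stages with its 95% interval, WT in blue and KO in orange, filled where the adjusted p was under 0.05. In the first panel *Hira*, *Ubn1* and *Asf1b* lie left of 0 and *Dnajc9* and *Ubn2* right of it in both genotypes, and in the second *Atrx* lies at 1.90 and 1.92.

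WT spermatozoa, the end of the series, differed from condensing spermatids in 9 of 10 members, against 72.4% of 15116 genes tested, on 2 against 3 libraries. The carriers *Nasp* and *Dnajc9*, with *Asf1b* and *Daxx*, fell. *Nasp* had 160.4 and 163 CPM, a fall of -2.47 (-2.83 to -2.11, adjusted p = 5.42e-11), 5.53-fold. *Dnajc9* had 19.4 and 17.6 CPM (-2.0, -2.40 to -1.60, adjusted p = 6.69e-09). *Asf1b* had 6.47 and 3.88 CPM from 22 and 11 counts (-1.99, -2.60 to -1.37, adjusted p = 4.16e-06). *Daxx* had 32.7 and 33.5 CPM (-1.21, -1.60 to -0.83, adjusted p = 4.79e-06). *Asf1a*, at 12.7 and 11.6 CPM, was called lower (-0.53, -1.01 to -0.05, adjusted p = 0.0447), a call lost in the DESeq2 Wald test (adjusted p = 0.145) and without 4 of 5 libraries.

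*Hira*, *Ubn2* and *Cabin1* of the HIRA complex, and *Atrx*, rose in the same comparison. *Hira* had 26.2 and 24.7 CPM in WT spermatozoa (1.57, 1.12 to 2.03, adjusted p = 1.59e-06), above its pachytene level. *Atrx* had 74.8 and 88.9 CPM (1.56, 1.18 to 1.93, adjusted p = 1.28e-07), *Ubn2* 466 and 373 CPM (1.0, 0.68 to 1.32, adjusted p = 6.10e-06), and *Cabin1* 65.9 and 64.9 CPM (0.79, 0.44 to 1.15, adjusted p = 0.000301). *Ubn1*, at 73.6 and 80.5 CPM, did not pass the test (0.11, -0.20 to 0.41, adjusted p = 0.532). Marker lists of other cells moved in both directions. In these libraries 7 of 7 macrophage markers were called higher than in condensing spermatids, led by *Lyz2* at 457 to 503 CPM against at most 7.38 CPM. Of 3 epididymis markers tested 2 were called higher, *Crisp1* (1495 to 1592 CPM against at most 1.41 CPM) and *Adam7* (313 to 337 CPM against at most 0.35 CPM), and *Cst8* was called lower (22.9 to 29.1 CPM against up to 295 CPM), while *Lcn5* was at 0 in every group. In the same comparison 7 of 7 Sertoli, 7 of 8 Leydig and 3 of 5 peritubular markers were called lower. Over all genes tested 36.6% were called higher and 35.8% lower. The part of these cells in the 4 rises was not tested.

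The single KO spermatozoa library entered no test. Its levels were 42.2 CPM for *Hira*, 117 CPM for *Ubn1*, 347 CPM for *Ubn2*, 86.2 CPM for *Cabin1*, 12.3 CPM for *Asf1a*, 3.39 CPM for *Asf1b*, 38.2 CPM for *Daxx*, 131 CPM for *Atrx*, 156 CPM for *Nasp* and 19.4 CPM for *Dnajc9*. For *Hira*, *Ubn1*, *Cabin1*, *Daxx* and *Atrx* it stood above both WT libraries, for *Ubn2*, *Asf1b* and *Nasp* below both, and for *Asf1a* and *Dnajc9* between them. The same library had 3500.4 CPM of macrophage markers against 708 and 753 CPM in WT and 11351 CPM of elongating spermatid markers against 32544 and 36821 CPM, and the part of these markers was not tested.

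**Figure D3:**
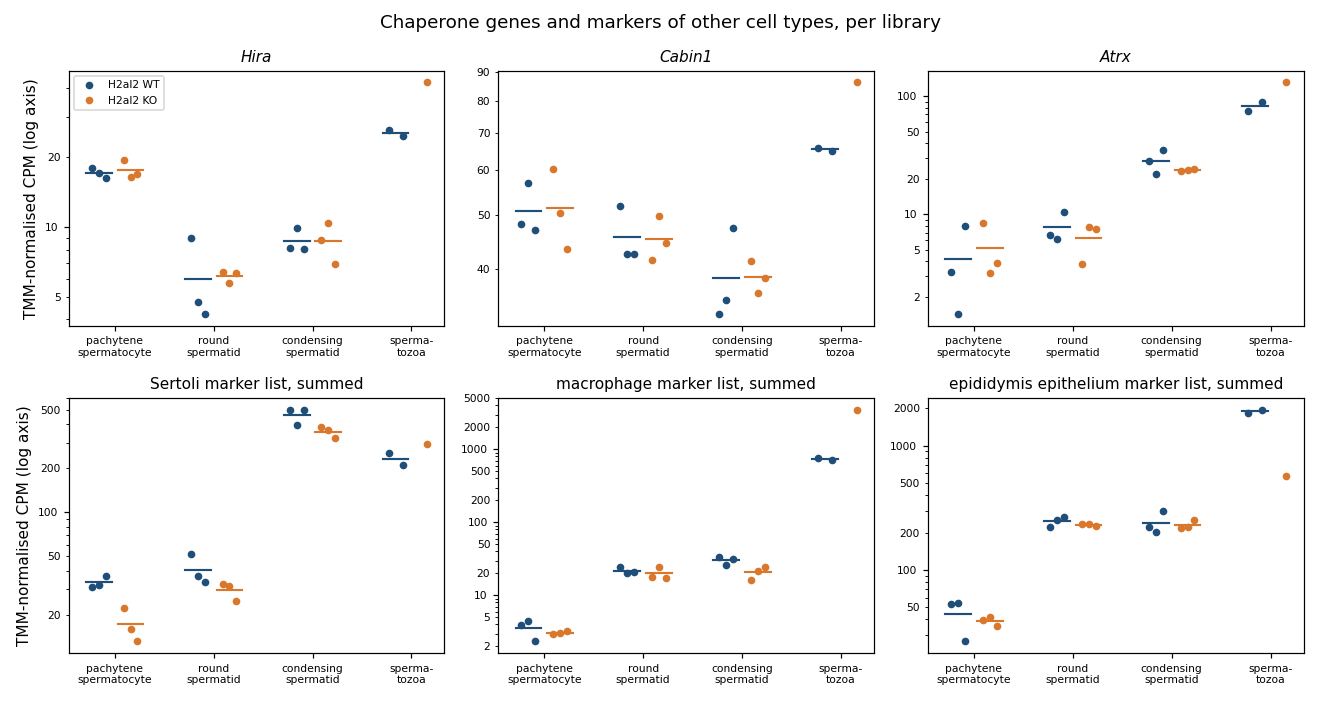
Levels of *Hira*, *Cabin1* and *Atrx* (top) and summed levels of the Sertoli, macrophage and epididymis epithelium marker lists (bottom) in every library, in TMM-normalised CPM on log axes, WT in blue and KO in orange. The spermatozoa libraries stand highest in the 3 genes and in the macrophage and epididymis lists, and the condensing spermatid libraries, at 320 to 503 CPM, stand highest in the Sertoli list.

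Divided by the length of the annotated exons, the levels can be set in order. In WT pachytene spermatocytes *Nasp* led with 395 CPM per kilobase (percentile 99.7 of 19917 genes with a length), followed by *Daxx* (51.1), *Asf1b* (27.9), *Ubn1* (26.1), *Dnajc9* (15.3), *Asf1a* (9.62), *Ubn2* (8.52), *Cabin1* (6.83), *Hira* (3.63) and *Atrx* (0.33). The neighbours *Asf1b* and *Ubn1*, *Asf1a* and *Ubn2*, and *Ubn2* and *Cabin1* overlapped over the 3 libraries. In WT round spermatids the order was *Nasp* (486), *Dnajc9* (46.9), *Daxx* (43.5), *Ubn2* (13.8), *Ubn1* (11.3), *Asf1b* (9.71), *Asf1a* (8.41), *Cabin1* (6.15), *Hira* (1.26) and *Atrx* (0.61). There *Dnajc9* overlapped *Daxx*, and *Asf1b* overlapped *Asf1a*. In both stages *Hira* and *Atrx* had the lowest levels per kilobase of the 10 members.

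The balance within pairs followed. *Ubn1* made up 71.5% to 79.7% of the summed ubinuclein level per kilobase in WT pachytene spermatocytes and 42.7% to 49.7% in WT round spermatids (means 75.6% ± 4.08 and 45.0% ± 4.05, SD, n = 3). KO libraries went from 65.8% to 75.5% down to 37.3% to 51.4%. On this measure the larger share passed from *Ubn1* to *Ubn2* in WT, but not in every KO library. The measure uses annotated exon lengths, 6470 bases for *Ubn1* and 14650 bases for *Ubn2*. The transcript lengths present in these cells were not tested. *Asf1b* made up 66.7% to 78.2% of the ASF1 level in WT pachytene, 49.3% to 56.6% in round and 61.5% to 66.1% in condensing spermatids, and 32.9% and 43.0% in WT spermatozoa. *Atrx* made up 0.20% to 1.31% of the DAXX-ATRX level in WT pachytene spermatocytes, 5.15% to 11.3% in condensing spermatids and 33.8% and 37.2% in spermatozoa. *Hira* itself was 7.18% to 8.89% of the summed HIRA complex genes in WT pachytene and 2.71% to 5.83% in WT round spermatids. The shares are given as a description, since they combine the changes tested above.

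**Figure D4:**
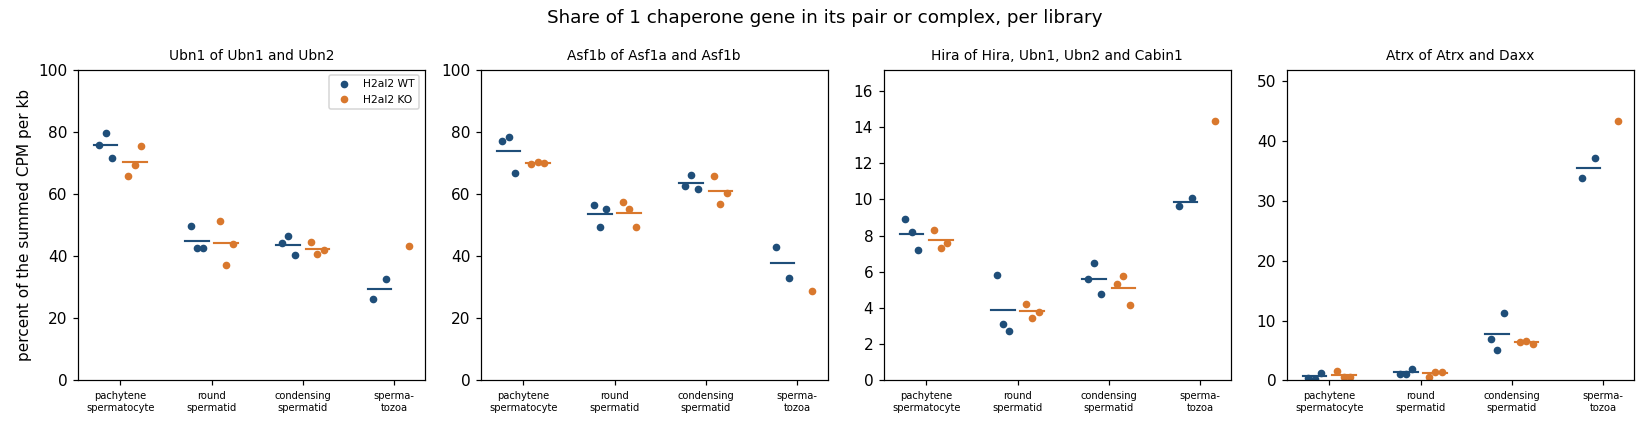
Share of 1 gene in the summed CPM per kilobase of its pair or complex, in percent, for every library, WT in blue and KO in orange with a bar at the mean. The *Ubn1* share drops from 71.5% to 79.7% in WT pachytene spermatocytes to 42.7% to 49.7% in WT round spermatids, while the *Atrx* share rises to 33.8% and 37.2% in WT spermatozoa.

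The question set by the design, whether loss of H2A.L.2 alters gene expression, was put to the members in each fraction. No member was called between KO and WT in pachytene spermatocytes, round spermatids or condensing spermatids by edgeR's quasi-likelihood test or by the DESeq2 Wald test, and 0 of the 30 values had an unadjusted p under 0.05. Over all genes the share called was 0% of 12236 in pachytene spermatocytes (edgeR gave 815 genes an unadjusted p below 0.05, and DESeq2 called 2), 0.0156% of 12804 in round spermatids (2 genes, 6 by DESeq2) and 0.00728% of 13734 in condensing spermatids (1 gene, 13 by DESeq2). The gene that edgeR called in condensing spermatids was *H2afb1*, the row taken as the targeted gene. It was also 1 of the 2 called in round spermatids. The 30 log2 differences ran from -0.28 (*Atrx*, round spermatids) to 0.45 (*Ubn2*, pachytene spermatocytes). All 95% intervals but that of *Atrx* in pachytene spermatocytes lay within a 2-fold change in either direction. The WT and KO libraries overlapped in each comparison except for *Ubn1* and *Nasp* in condensing spermatids, where every KO library lay above every WT library and the test was not passed. Over all genes tested, the WT and KO libraries did not overlap for 11.4% in pachytene spermatocytes, 9.9% in round spermatids and 12.1% in condensing spermatids, where 6.63% had every KO library above every WT library. Summed markers of other cells were lower in KO in part. In WT and KO condensing spermatids, Leydig sums were 153 to 239 and 92.0 to 137 CPM. Sertoli sums were 394 to 503 and 320 to 384 CPM there, and 31.0 to 36.7 and 13.1 to 22.4 CPM in pachytene spermatocytes. Condensing macrophage sums were 26.3 to 33.8 and 16.2 to 24.2 CPM. Peritubular sums overlapped in each fraction, and pachytene Leydig and macrophage sums overlapped. The part of these markers was not tested.

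For the HIRA complex the KO minus WT log2 differences in pachytene, round and condensing cells were 0.11 (-0.20 to 0.42), 0.05 (-0.55 to 0.64) and -0.01 (-0.42 to 0.40) for *Hira*. They were 0.08 (-0.18 to 0.33), 0.07 (-0.15 to 0.29) and 0.11 (-0.10 to 0.32) for *Ubn1*, none past the test. *Ubn2* differed by 0.45 (-0.05 to 0.95), 0.13 (-0.16 to 0.41) and 0.18 (-0.08 to 0.44), and its pachytene difference was called when the third WT pachytene library was left out (0.73, adjusted p = 0.0469). *Cabin1* differed by 0.09 (-0.24 to 0.42), -0.0015 (-0.25 to 0.25) and -0.0016 (-0.30 to 0.29).

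For the ASF1 pair they were 0.17 (-0.19 to 0.52), -0.06 (-0.38 to 0.27) and -0.06 (-0.37 to 0.25) for *Asf1a*, and -0.14 (-0.43 to 0.15), -0.05 (-0.32 to 0.22) and -0.22 (-0.56 to 0.11) for *Asf1b*. *Daxx* differed by -0.12 (-0.36 to 0.11), -0.02 (-0.20 to 0.16) and -0.02 (-0.29 to 0.25). *Atrx*, the member with the widest spread among replicates (pooled SD 0.67 on the log2 scale), differed by 0.38 (-0.98 to 1.75), -0.28 (-0.91 to 0.35) and -0.26 (-0.60 to 0.07). For the carriers the values were 0.33 (-0.15 to 0.80), -0.07 (-0.35 to 0.21) and 0.22 (-0.06 to 0.50) for *Nasp*, and -0.17 (-0.55 to 0.22), 0.04 (-0.17 to 0.25) and 0.04 (-0.21 to 0.29) for *Dnajc9*.

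The stage changes were also compared between genotypes as an interaction over the 18 libraries. No member passed the test in either step, 0 had an unadjusted p under 0.05, and over all 14479 genes edgeR called 0% in the first step (1050 at an unadjusted p under 0.05, DESeq2 1) and 0% in the second (407 at an unadjusted p under 0.05, DESeq2 0). The differences between the genotypes' log2 changes ran from -0.69 (*Atrx*, -1.94 to 0.56) to 0.22 (*Dnajc9*, -0.19 to 0.63) from pachytene to round spermatids, and from -0.18 (*Asf1b*, -0.63 to 0.28) to 0.29 (*Nasp*, -0.21 to 0.79) from round to condensing spermatids.

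**Figure D5:**
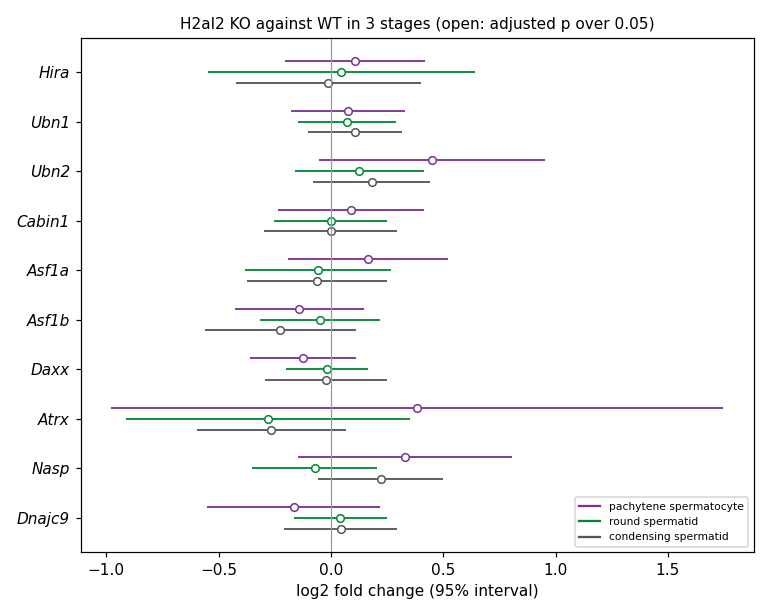
Log2 difference of KO from WT for each member with its 95% interval in pachytene spermatocytes (purple), round spermatids (green) and condensing spermatids (grey). All points are open, since no adjusted p was under 0.05, and only the *Atrx* interval in pachytene spermatocytes, -0.98 to 1.75, extends beyond 1.

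Other genes of the H3 and H2A-H2B routes, in 7 lists, give the surroundings of the members in WT round against pachytene spermatocytes. Over all genes tested in this contrast 34.4% were called higher and 35.9% lower, 70.3% in all, and the lists hold 4 to 19 genes tested each. Of 10 genes listed for replication-coupled H3-H4 handling 3 rose and 4 fell. The histone binder *Rbbp4* (341 to 108 CPM on average, -1.64), *Cdan1* (-1.19) and *Chaf1b* of the CAF-1 complex (-1.22) fell. The histone acetyltransferase *Hat1* rose (1.30), and the adjusted p of these 4 genes lay between 1.37e-07 and 4.73e-05. Of 6 chaperones that travel with RNA polymerase 5 fell and none rose, with the FACT subunits *Supt16* (-2.34, adjusted p = 1.71e-07) and *Ssrp1* (-0.74, adjusted p = 4.63e-05), and with *Supt6* (-0.91) and *Spty2d1* (-0.53). Of 4 DAXX-ATRX partners tested 3 fell, the heterochromatin protein gene *Cbx5* (-1.81), *Setdb1* (-1.36) and *Trim28* (-0.94), and *Pml* (0.24, adjusted p = 0.568) did not pass. *Daxx* and *Atrx* themselves had -0.21 and 0.96 there and did not pass either.

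Of 7 genes for H3.3, the centromeric H3 and its loading factors 1 rose and 4 fell. The genes *H3f3a* and *H3f3b* encode the same protein, H3.3, the histone that HIRA and DAXX carry, and they moved in opposite directions. *H3f3a*, the gene that rose, had a change of 0.45 (adjusted p = 0.00394), and *H3f3b* went from 563 to 260.3 CPM (-1.09, adjusted p = 3.20e-06), and the centromeric factors *Mis18a* (-2.15), *Hjurp* (-0.85) and *Oip5* (-1.49) fell as well. Of 10 H2A-H2B chaperones tested 5 fell and none rose, with *Anp32b* (-2.58), *Nap1l1* (-1.94), *Nap1l4* (-1.64) and *Npm3* (-0.64) leading. Of 19 S-phase genes 1 rose and 10 fell, a smaller share called than over all genes, among them *Ccne2* (-2.81), *Gins2* (-1.80), *Mcm6* (-1.33) and *Mcm3* (-1.46). The list medians were -0.09 for replication-coupled handling, -0.63 for the polymerase-linked chaperones, -1.15 for the DAXX-ATRX partners, -0.85 for the H3.3 and centromeric genes, -0.42 for H2A-H2B chaperones and -0.46 for S-phase genes, against -0.02 over all genes.

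Of the 5 genes listed as ATAD2 and HSP70 partners 2 rose and 2 fell, with a median of -0.19. *Atad2*, whose protein is an ATPase with a bromodomain that binds acetylated histones, rose from 34.2 to 92.1 CPM on average (1.45, adjusted p = 2.10e-05). Of the HSP70 genes, *Hspa1l* rose from 186 to 1203 CPM (2.71, adjusted p = 8.74e-07), while *Hspa8* (-1.14, adjusted p = 2.64e-06) and *Hspa2* (-0.61, adjusted p = 0.00301) fell. From round to condensing spermatids in WT, 5 of 10 H2A-H2B chaperones rose and none fell, and 2 of 6 polymerase-linked chaperones rose, where 28.3% of all genes rose and 21.8% fell. From condensing spermatids to spermatozoa, 4 of these 6 fell and 1 rose, and 9 of 19 S-phase genes fell and 3 rose, where 36.6% of all genes rose and 35.8% fell. No gene of the 7 lists was called between KO and WT in any of the 3 fractions.

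Over the 18 libraries of the 3 fractions the members fell into patterns, described here by Pearson's r of log2 CPM, where the libraries share their stage and much of the correlation is that of stage. *Ubn1*, *Asf1b* and *Hira* went together (r = 0.94 for *Ubn1* with *Asf1b*, 0.92 for *Hira* with *Asf1b* and 0.90 for *Hira* with *Ubn1*), and *Dnajc9* ran against them (-0.98 with *Ubn1*). *Daxx* ran against *Atrx* (-0.93). Among 14022 genes with a mean of at least 1 CPM, those most like each member were *Rab2a*, *Kansl3* and *Gpatch1* for *Hira* (r up to 0.98), *Fam20b*, *Tnrc6c* and *Scaf1* for *Ubn1* (0.99), *Rev3l*, *Zcchc7* and *Cul3* for *Ubn2* (0.97), and *2700046G09Rik*, *Rfxank* and *Wdr27* for *Cabin1* (0.87). They were *1700066M21Rik*, *Med7* and *Rbm46os* for *Asf1a* (0.93), *Mars* and *Atp5a1* for *Asf1b* (0.98), and *Ggnbp1*, *Ybx3* and *Tmem97* for *Daxx* (0.99). They were *Cd2ap*, *Bmpr2* and *Kitl* for *Atrx* (0.96), *Ddx4*, *Rbm27* and *Ube2u* for *Nasp* (0.98), and *Txndc2*, *Cst8* and *4930407I10Rik* for *Dnajc9* (0.995). *Kitl* is known as a Sertoli cell factor, and the Sertoli marker sums, like *Atrx*, were highest in the condensing fraction among these 18 libraries. *Cst8* stands on the epididymis list but was at up to 295 CPM in spermatid libraries and at most 29.1 CPM in spermatozoa.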

How the data were processed

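Total RNA of purified testis cell fractions was depleted of ribosomal RNA and sequenced as stranded paired-end reads. Per the labels' processing notes and the study's methods, the authors aligned the reads to mm10 with STAR 2.7.11b and counted those within exons by strand with HTSeq, leaving out reads with several alignments, and the values they deposited are these unnormalised counts, 1 table a library. The 5 rows that name no gene, with 34.6% to 57.7% of the counted reads, entered neither library sizes nor tests.

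edgeR 4.0.16 (R 4.3.3) was run with TMM factors, filterByExpr and the quasi-likelihood test, with Benjamini-Hochberg adjustment at 0.05 over all genes tested. Stages were fitted on the 9 libraries of each genotype, spermatozoa on 5 WT libraries, genotypes within each fraction and interactions on 18 libraries. Exon lengths came from GENCODE M21 (GRCm38, the same assembly as mm10) and matched 19917 genes by symbol. Upstream sequences came from RefSeq. The alternatives were DESeq2 1.42.0, DESeq2 size factors, library size only, no filter, all 18 libraries (or the 11 WT libraries), a replicate block and each library left out, and, chosen after seeing the data, the second and the third WT round libraries summed. The test scripts were tested on simulated data. The members and lists were chosen with earlier results of these data known. The text names the 10 members, up to 4 genes per list with the lowest adjusted p in WT round against pachytene spermatocytes, the targeted gene, and for each member the 3 genes with the highest r, of which 1 is not reported here. *H3f3a*, *Lyz2*, *Crisp1*, *Adam7*, *Lcn5* and *Glyr1* were named after their values or positions were seen, and interactions are given by their range. Between the second and the third WT round spermatid libraries the mean chi-square per gene was 1.06 for genes with 100 to 1000 counts, where 1 is sampling noise, and 8.76 above 10000 counts. The other pairs had at least 1.90 and 65.9, and these libraries were kept apart. Poisson intervals cover counting error only.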

Additional observations from a re-analysis of the deposited data

Results flagged for a closer look

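In the KO spermatozoa library, which entered no comparison, *Hira* was at 42.2 CPM (exact 95% Poisson interval 35.4 to 49.9), above the intervals of both WT libraries, which reached 32.2 CPM. *Ubn1* was at 117 CPM (106 to 129) against WT intervals of up to 91.6 CPM. *Cabin1* was at 86.2 CPM (76.4 to 96.9) against up to 75.1 CPM. *Atrx* was at 131 CPM (119 to 144) against up to 101 CPM. The intervals cover counting error only, and with 1 KO library the difference between genotypes cannot be tested. The same library had 3500.4 CPM of macrophage markers against 708 and 753 CPM in WT, 574 CPM of epididymis markers against 1839 and 1954 CPM, and 11351 CPM of elongating spermatid markers against 32544 and 36821 CPM. The part of these markers in the 4 values was not tested.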

How the results depend on the processing

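The number of members called stayed within 1.5 times under every alternative run except with 1 library left out. It was 2 to 4 for KO condensing against round spermatids (2 without the third KO round library) and 0 to 1 for KO against WT pachytene spermatocytes (1 without the third WT pachytene library). Of 1196 member values under alternatives, 1109 kept their direction and their side of the threshold, 20 lost a call, 14 gained one and 53 changed sign, none of the last called in the main test; the cause was not tested. In WT condensing against round spermatids, *Ubn1* turned to -0.0049 with the second and the third WT round libraries summed (chosen after seeing the data), -0.034 by DESeq2 and -0.019 with DESeq2 size factors. *Dnajc9* turned to -0.050, -0.033 and -0.012 by DESeq2, with its size factors and with no filter, and to -0.0024 by DESeq2 in KO. In KO against WT round spermatids, *Hira* turned to -0.051 with the summed libraries, and *Cabin1* to 0.00033 (DESeq2), 0.0084 (library size only), 0.0081 (no filter) and 0.0055 (all 18 libraries). *Cabin1* in condensing spermatids turned to 0.0060 (DESeq2), 0.0017 (size factors), 0.0051 (no filter) and 0.0083 (all 18 libraries).

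With single libraries left out, ranges that crossed 0 in KO against WT condensing spermatids were -0.19 to 0.027 for *Asf1a*, -0.10 to 0.18 for *Cabin1*, -0.16 to 0.081 for *Daxx*, -0.036 to 0.18 for *Dnajc9* and -0.17 to 0.13 for *Hira*. In round spermatids they were -0.19 to 0.063 for *Asf1a*, -0.068 to 0.0053 for *Asf1b*, -0.45 to 0.0016 for *Atrx*, -0.072 to 0.10 for *Cabin1*, -0.055 to 0.028 for *Daxx*, -0.033 to 0.090 for *Dnajc9*, -0.14 to 0.47 for *Hira* and -0.21 to 0.078 for *Nasp*. In pachytene spermatocytes they were -0.19 to 1.25 for *Atrx* and -0.064 to 0.21 for *Cabin1*. For condensing against round spermatids they were -0.12 to 0.083 for *Dnajc9*, -0.052 to 0.054 for *Ubn1* and -0.0087 to 0.15 for *Ubn2* in WT, -0.021 to 0.13 for *Ubn1* in KO and -0.26 to 0.026 for the *Asf1b* interaction. For KO round against pachytene spermatocytes *Nasp* ran from -0.20 to 0.070.

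The replicate numbers were not read as pairs, since no comparison had every correlation between same-numbered libraries above 0.1. In KO against WT round spermatids the correlations were 0.44, 0.27 and 0.099, so that only the last missed this cut-off, and narrowly. They do not settle whether the libraries are paired there, and the labels do not say which libraries share an animal. With the replicate number as a block, 6 members were called in WT round against pachytene spermatocytes, *Atrx* being gained (1.01, adjusted p = 0.00819), then 3 and 9 in the later WT steps, 6 and 4 in the KO steps and 0 between genotypes, and *Cabin1* in condensing spermatids turned to 0.0090. Over all genes, the block raised the calls between genotypes from 2 to 61 in round and from 1 to 26 in condensing spermatids, no filter gave 28 and 27, and DESeq2 6 and 13. In pachytene spermatocytes, DESeq2 called 2, no filter 1 and all 18 libraries 4, and in condensing spermatids library size only gave 7. Library size only moved the median of all genes to -0.20 in WT round against pachytene spermatocytes and to 0.11 in the next step. Low counts limit the precision of *Atrx* in pachytene spermatocytes (12 to 54 counts in WT) and of *Asf1b* in spermatozoa (11 to 22 counts).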
